A study of Rattus norvegicus with 11 samples.

Results

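The genes described here encode the enzymes, carriers and binding proteins that take fatty acids into the liver cell, activate them, shorten them in mitochondria and peroxisomes, and turn the product into ketone bodies. They were taken from a list of 38 genes, and each was represented by the brightest of its probe sets that carried a single gene symbol in the platform annotation, the mean being taken over the 11 arrays. Of the 38, 37 had such a probe set; Acaa1a had none and was not analysed here. For Acot1, which encodes a cytosolic acyl-CoA thioesterase, the intensity ran from 28.6 to 55.8 over all animals, under the signal filter, so that 36 members were tested among 10714 genes in all.

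The livers were those of Wistar rats, 3 of them controls (animal numbers 1, 2 and 9) and 8 high-dosed with mequindox (numbers 2, 3, 4, 5, 6, 8, 10 and 11). Mequindox is a synthetic antibacterial of the quinoxaline dioxide class, given to livestock. Each animal was measured on its own Affymetrix array. All were labelled as week 9 of age except high-dosed animal 8, labelled as week 10. The study picked these groups for arrays by the principal component scores of liver extracts and by clinical chemistry, and the dose in units of mass, the length of treatment, the time of day and feeding at sampling are not given in the sources used here.

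In the liver, long-chain fatty acids enter with the help of proteins such as CD36 and FATP2, are bound by FABP1 and are joined to coenzyme A. Carnitine palmitoyltransferase 1, encoded in the liver by Cpt1a, controls their passage into mitochondria, where repeated cycles of dehydrogenation, hydration, dehydrogenation and thiolysis release acetyl-CoA, much of which becomes ketone bodies during fasting. Peroxisomes shorten very long and branched chains and bile acid precursors, and many genes of both pathways are targets of the nuclear receptor PPAR alpha.

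The deposited values are intensities on a linear scale in arbitrary units, with a median per array of 149 to 186.6. The hepatocyte markers Alb, encoding albumin, and Ttr, encoding transthyretin, were bright in every animal (33424 to 34328 and 24887 to 26241), and the summed intensity of 7 hepatocyte markers was 125134 to 128189 in controls and 125627 to 132843 in high-dosed animals. Of the 7, Apoa1, an apolipoprotein, was higher in high-dosed animals (0.35 ± 0.078, limma adjusted p = 0.0153) and Asgr1, an asialoglycoprotein receptor subunit, lower (-0.18 ± 0.044, adjusted p = 0.0242). A pair of arrays carried signal of other tissues. In high-dosed animal 11 the skeletal muscle markers were raised, with Acta1, skeletal muscle actin, at 2926 against at most 50.9 in any other animal and myoglobin, Mb, at 809 against at most 37.3. In control 2 part of the adipose list was raised. Fabp4, the fat cell fatty acid binding protein, was at 1880 against at most 348.4 in any other animal. Adiponectin, Adipoq, was at 254 against at most 79.6, and Lpl, lipoprotein lipase, at 952 against at most 368. Plin1 (102.2 against 101.7) and Lep (97.6 against 81.4) were barely higher there, and Cidec, at 1899, lay below the highest other animal, at 2134. Cpt1b, the muscle and adipose form of the carnitine palmitoyltransferase, was also highest in control 2, at 232 against at most 107 elsewhere, although its mean lay under the filter. Results are therefore given with these arrays and, where the call depends on it, without them.

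Most genes of fatty acid oxidation did not differ detectably between high-dosed and control livers. At a limma adjusted p below 0.05, 3 of the 36 members were higher in high-dosed animals, Cpt1a, Echs1 and Acads, and 2 were lower, Decr2 and Acsl5. These are 8.33% and 5.56% of the members, beside 7.91% and 2.74% of all 10714 genes tested, and 13.9% beside 10.6% for both directions together. Only Cpt1a among them changed by at least 1.5-fold, as did 1.65% of all genes tested. The median log2 fold change over the members was -0.053, beside 0.017 over all genes tested. Above 0 lay 13 members (36.1%, beside 53.9% of all genes tested), and 23 lay below. For 24 of the 31 members that did not pass, the 95% interval of the fold change lay within 1.5-fold in either direction. The 3 controls limit the precision: the half-width of those intervals ran from 0.070 to 0.66 on the log2 scale, with a median of 0.22.

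**Figure D1:**
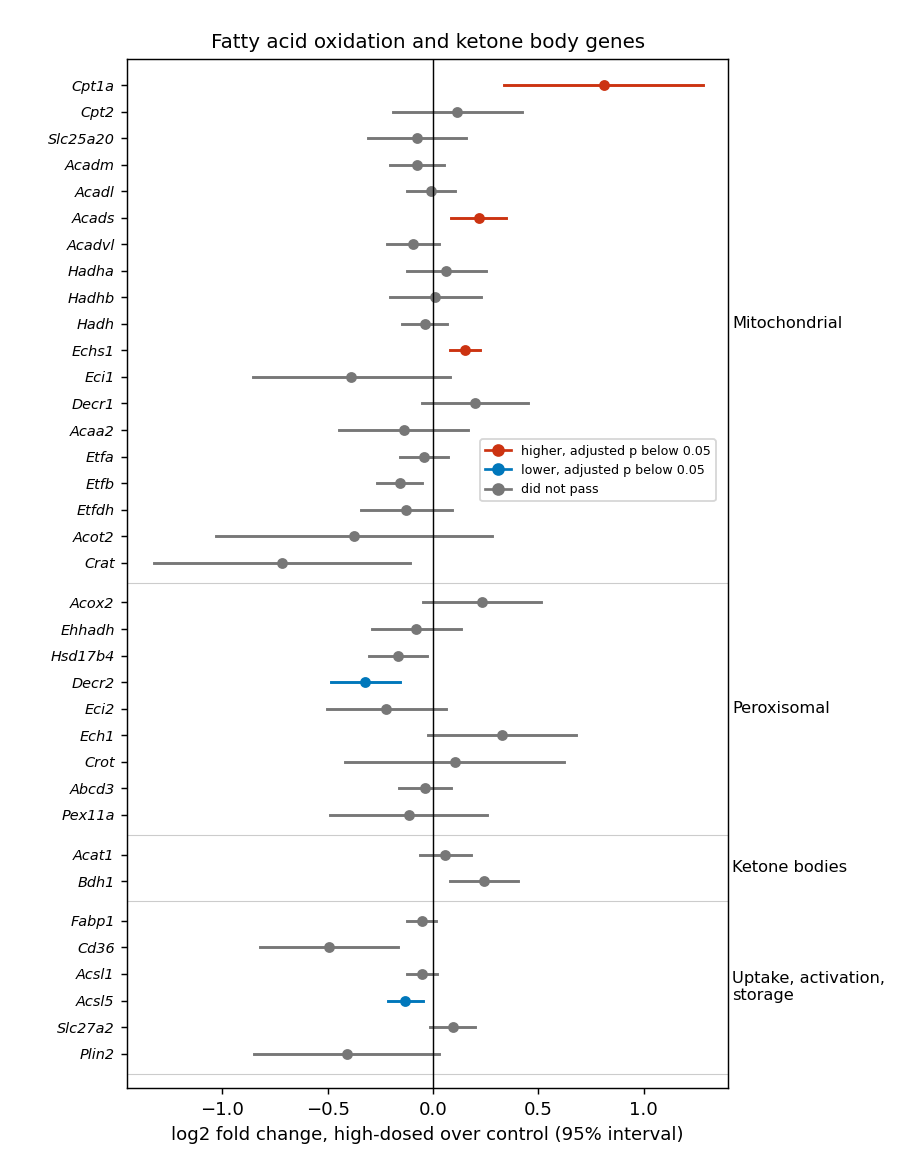
Log2 fold change of high-dosed over control animals for the 36 members tested (points) with 95% intervals from limma (lines), grouped by place of action; red, higher and blue, lower at an adjusted p below 0.05, grey, not passed. Most intervals cross or lie near 0, Cpt1a stands apart at 0.81, and Crat, Acot2, Eci1, Cd36 and Plin2 have wide intervals below or across 0.

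The promoters of the pair of members with the largest rise (Cpt1a) and the smallest adjusted p (Echs1) are shown because both genes are described first below, and because PPAR alpha with its partner RXR binds a direct repeat of the hexamer AGGTCA with 1 base between the copies. The sequences are the 250 bases before the annotated start in RefSeq (build GRCr8), read 5′ to 3′ on the strand of the gene; that of Cpt1a is chr1:209995910-209996159 on the plus strand and that of Echs1 chr1:204333507-204333756 on the minus strand. Capitals mark the hexamer on either strand.
Cpt1a: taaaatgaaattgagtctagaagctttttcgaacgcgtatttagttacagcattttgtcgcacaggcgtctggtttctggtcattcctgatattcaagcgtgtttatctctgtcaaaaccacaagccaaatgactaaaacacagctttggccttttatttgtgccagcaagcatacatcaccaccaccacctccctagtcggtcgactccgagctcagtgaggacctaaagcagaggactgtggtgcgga
Echs1: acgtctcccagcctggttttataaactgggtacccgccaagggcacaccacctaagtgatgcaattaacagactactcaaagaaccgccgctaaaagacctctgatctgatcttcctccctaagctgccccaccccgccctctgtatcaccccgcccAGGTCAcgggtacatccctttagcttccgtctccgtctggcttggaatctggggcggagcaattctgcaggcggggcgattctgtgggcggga
Echs1 holds 1 copy, starting 93 bases before the start, and Cpt1a holds none in this window. On both strands, 6 of the 35 promoter entries for 34 members held AGGTCA (17.1%), beside 14.1% of 33365 promoters of the same length. The full direct repeat, 2 hexamers with any 1 base between them and so overlapping the hexamer search, was in 0 of the 35 and in 0.051% of all promoters. These counts describe letters in a window and say nothing about binding.

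Among the genes of the carnitine shuttle, Cpt1a rose and the other members did not pass. The intensity of Cpt1a was 3534, 3401 and 2911 in controls 1, 2 and 9. In high-dosed animals 2, 3, 4, 5, 6, 8, 10 and 11 it was 5652, 3871, 6110, 4303, 9980, 7390, 5182 and 5625. Every high-dosed animal lay above every control, but the high-dosed values spread widely, with animals 6 and 8 highest and animals 3 and 5 nearest the controls. The mean rose from 3282 ± 328 (SD, n = 3) to 6014 ± 1932 (SD, n = 8), a 1.75-fold change on the log2(intensity + 55.26) scale (log2 fold change 0.81 ± 0.22, SE, 95% interval 0.34 to 1.28, limma adjusted p = 0.0351). The second, dimmer probe set of Cpt1a differed in the same direction, by 1.02, but the mean over both did not pass (0.91, adjusted p = 0.074). The call was lost without any 1 of the 3 controls (log2 fold change 0.73 to 0.87, adjusted p from 0.0821 to 0.116), without high-dosed animal 4 or 8 (0.80 and 0.76, adjusted p = 0.0546 and 0.0549), and without control 2 and high-dosed animal 11 together (0.84, adjusted p = 0.105), while the size of the difference moved little.

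Cpt2, which returns the acyl group to coenzyme A on the inner membrane, ran from 2662 to 3137 in controls and from 2331 to 4207 in high-dosed animals (0.12 ± 0.14, adjusted p = 0.652). Slc25a20, the carnitine-acylcarnitine translocase, ran from 2753 to 3745 and from 2645 to 3763 (-0.074 ± 0.11, adjusted p = 0.705). In both the high-dosed range enclosed the control range. Crat, the carnitine acetyltransferase, which exports short acyl groups, did not pass either. Its intensity was 1613 and 1405 in controls 1 and 2 but 609 in control 9, within the high-dosed range of 428 to 996. The estimate of -0.72 ± 0.28 did not pass (adjusted p = 0.126); without control 9 it was -1.13 with an adjusted p of 0.0231, and without control 1 or control 2 it was -0.46 or -0.56 (adjusted p = 0.514 and 0.363). The value for Crat thus turns on control 9, and among animal numbers 8 and above, where control 9 is the only control, the difference was 0.35 (adjusted p = 0.156), while among numbers 1 to 6 it was -1.27 (adjusted p = 0.0288).

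Of the 4 acyl-CoA dehydrogenases, which carry out the first step of each cycle on chains of different length, 1 rose (25%, beside 7.91% of all genes). Acads, the short-chain enzyme, was at 2391, 2378 and 2320 in the controls and ran from 2533 to 3112 in high-dosed animals with a median of 2751. The groups did not overlap, and the rise was small (0.22 ± 0.060, limma adjusted p = 0.038). It lost its call without any 1 of the 3 controls and without any 1 of 5 high-dosed animals (adjusted p up to 0.124), and when the arrays were quantile-normalized or centred on their medians (0.20 in both, adjusted p = 0.0639 and 0.161); without control 2 and high-dosed animal 11 it was 0.22 (adjusted p = 0.131). The enzymes for longer chains had values near 0: Acadm, for medium chains, -0.076 ± 0.059 (adjusted p = 0.467), Acadl, for long chains, -0.0089 ± 0.053 (adjusted p = 0.937), and Acadvl, for very long chains, -0.094 ± 0.058 (adjusted p = 0.341). Their 95% intervals were -0.20 to 0.053, -0.12 to 0.11 and -0.22 to 0.031.

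Echs1, the mitochondrial enoyl-CoA hydratase of short chains, rose by a small amount that was tight among animals. Its intensity was 7769, 8095 and 7934 in controls 1, 2 and 9 and 9034, 9011, 8408, 8922, 8683, 8904, 8729 and 8907 in high-dosed animals 2, 3, 4, 5, 6, 8, 10 and 11. The lowest high-dosed animal, number 4, lay above the highest control. The log2 fold change was 0.15 ± 0.033 (95% interval 0.082 to 0.22, limma adjusted p = 0.0131), 1.11-fold, and it was the 1 member still called without control 2 and high-dosed animal 11 (0.17, adjusted p = 0.0484). The call was lost without control 1 (0.14, adjusted p = 0.0823), after median centring (0.13, adjusted p = 0.184) and in a fit without an intensity trend of the variance (adjusted p = 0.0607).

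The trifunctional protein, whose alpha and beta subunits are encoded by Hadha and Hadhb and which handles long chains, did not differ detectably. Hadha ran from 3707 to 4618 in controls and from 3839 to 5082 in high-dosed animals (0.064 ± 0.087, 95% interval -0.12 to 0.25), and Hadhb from 4643 to 5795 and from 4491 to 6774 (0.0099 ± 0.10, 95% interval -0.21 to 0.23). The signs of both turned without control 9, to -0.039 and -0.091. Hadh, the short-chain hydroxyacyl-CoA dehydrogenase (-0.040 ± 0.050), and Acaa2, the mitochondrial thiolase (-0.14 ± 0.14), did not pass either (adjusted p = 0.662 and 0.587). In Acaa2 control 1 was highest at 13895 and high-dosed animal 10 lowest at 7470, with the other animals between.

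Both enzymes that prepare unsaturated chains in mitochondria had overlapping groups. Eci1, the enoyl-CoA isomerase, was at 6625, 5083 and 3860 in controls 1, 2 and 9, and in high-dosed animals ran from 2748 in animal 3 to 6508 in animal 6 (-0.39 ± 0.22, adjusted p = 0.291). Decr1, the mitochondrial dienoyl-CoA reductase, ran from 5329 to 7837 in controls and from 6712 to 9578 in high-dosed animals (0.20 ± 0.12, adjusted p = 0.314). All 3 genes of the path that hands electrons from the dehydrogenases to the respiratory chain had estimates below 0, and none passed. Etfb, the beta subunit of the electron transfer flavoprotein, came nearest, with 8318, 8086 and 7469 in controls and 6512 to 7659 in high-dosed animals (-0.16 ± 0.049, adjusted p = 0.0591); all 8 high-dosed animals lay below the control mean, with animal 2 above control 9. Etfb passed with animal numbers 8 and above as a block (adjusted p = 0.0418), without control 9 (-0.20, adjusted p = 0.044) and without high-dosed animal 2 (-0.17, adjusted p = 0.0306). It passed in no other setting. Leaving out 1 array gave -0.20 to -0.13 (limma adjusted p up to 0.28). Without control 2 and high-dosed animal 11 the estimate for Etfb was -0.15 (adjusted p = 0.19). Etfa, its alpha subunit, was at -0.043 ± 0.052 and Etfdh, the dehydrogenase that accepts the electrons, at -0.13 ± 0.10 (adjusted p = 0.651 and 0.466). Acot2, a mitochondrial acyl-CoA thioesterase, ran from 1642 to 2536 in controls and from 971 in animal 2 to 3193 in animal 6 (-0.37 ± 0.30, adjusted p = 0.482), so the high-dosed range enclosed the control range.

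**Figure D2:**
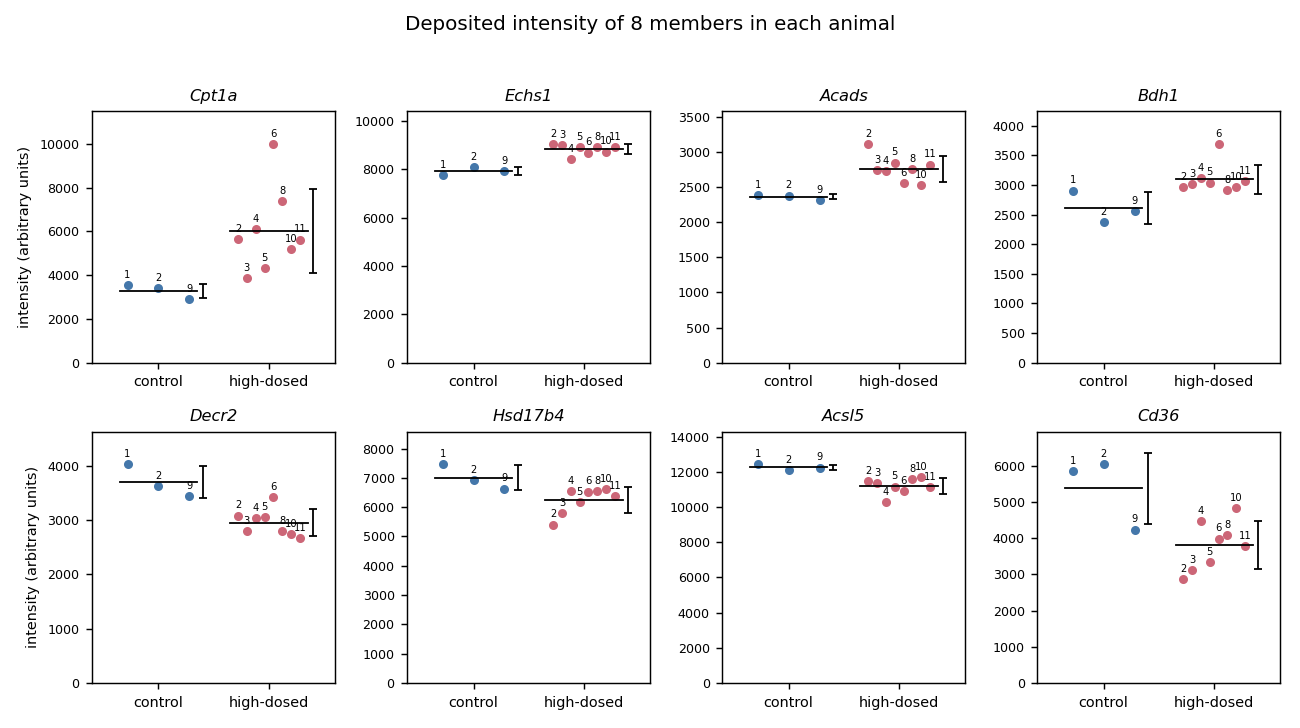
Deposited intensity (arbitrary units, axis from 0) of 8 members in each animal, with animal numbers beside the points, the group mean as a bar and the SD as an error bar (3 controls, blue; 8 high-dosed animals, red). Cpt1a, Echs1, Acads and Bdh1 have all high-dosed animals above all controls, Decr2, Hsd17b4 and Acsl5 have all below, and in Cd36 the groups overlap through control 9.

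Of 9 peroxisomal members tested, 1 fell (11.1%, beside 2.74% of all genes tested) and 0 rose. Decr2, the peroxisomal dienoyl-CoA reductase for unsaturated chains, was at 4023, 3629 and 3439 in controls 1, 2 and 9 and at 3079, 2799, 3040, 3055, 3427, 2796, 2745 and 2660 in high-dosed animals 2, 3, 4, 5, 6, 8, 10 and 11. The groups did not overlap, but animal 6 lay close under control 9. The log2 fold change was -0.32 ± 0.075 (95% interval -0.48 to -0.16, limma adjusted p = 0.0194). Without control 1 it was -0.26 (adjusted p = 0.131), and without control 2 and high-dosed animal 11 it was -0.31 (adjusted p = 0.0683), neither of them called.

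The core enzymes of peroxisomal oxidation did not pass. Hsd17b4, the multifunctional protein of branched chains and bile acid precursors, had 7462, 6918 and 6632 in controls and 5409 to 6615 in high-dosed animals, without overlap by a narrow margin (-0.16 ± 0.064, adjusted p = 0.12). Ehhadh, the bifunctional enzyme of straight chains, overlapped (5085 to 7110 and 5038 to 6411, -0.079 ± 0.098, adjusted p = 0.658). Acox2, the oxidase of branched chains and bile acid precursors, ran from 4518 to 7185 in controls and from 5405 to 7606 in high-dosed animals (0.23 ± 0.13, adjusted p = 0.286), with control 1 inside the high-dosed range. Eci2, a peroxisomal and mitochondrial enoyl-CoA isomerase, was at -0.22 ± 0.13 and Ech1, a dienoyl-CoA isomerase found in both organelles, at 0.33 ± 0.16 (adjusted p = 0.318 and 0.23). For Ech1 animal 6 was highest at 6286 and animal 8 next at 4691, and controls ran from 2856 to 3918, with animals 2, 3 and 10 inside their range. Crot, the carnitine octanoyltransferase that releases shortened chains, ran from 1549 in animal 2 to 4543 in animal 6 and enclosed the controls (0.10 ± 0.24, adjusted p = 0.823). Abcd3, a transporter of the peroxisomal membrane, and Pex11a, which takes part in peroxisome division, were at -0.038 ± 0.056 and -0.11 ± 0.17 (adjusted p = 0.711 and 0.717).

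Few members of either compartment were called. Of 19 mitochondrial members 3 rose (15.8%, beside 7.91% of all genes tested), 0 fell and 16 did not pass. Their median log2 fold change was -0.043, and 7 lay above 0 (36.8%, beside 53.9%). Of 9 peroxisomal members 0 rose, 1 fell (11.1%, beside 2.74%) and 8 did not pass. Their median was -0.079, and 3 lay above 0 (33.3%, beside 53.9%). The difference between the compartments was not tested. Each animal's median deviation from the control mean, on the log2 scale, ran from -0.13 (animal 3) to 0.13 (animal 6) over the mitochondrial members among high-dosed animals, and from -0.17 (control 9) to 0.097 (control 1) among controls. Over the peroxisomal members it ran from -0.26 (animal 2) to 0.11 (animal 6) among high-dosed animals and from -0.064 (control 9) to 0.18 (control 1) among controls. After the arrays were centred on their medians, animal 6 was no longer at the top: the high-dosed range was -0.17 (animal 3) to 0.018 (animal 11) over the mitochondrial and -0.24 (animal 3) to 0.011 (animal 11) over the peroxisomal members, with animal 6 at -0.011 and -0.031. After quantile normalization animal 6 stayed at the top. The high-dosed range was then -0.14 (animal 3) to 0.093 (animal 6) over the mitochondrial members. Over the peroxisomal members it was -0.26 (animal 2) to 0.079 (animal 6). In both compartments and on each of these scales the range within the high-dosed group overlapped that of the controls.

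For ketone bodies, 2 members were tested and neither passed. Bdh1, which interconverts acetoacetate and beta-hydroxybutyrate, was at 2904, 2373 and 2560 in controls 1, 2 and 9 and at 2964, 3011, 3123, 3042, 3689, 2908, 2969 and 3066 in high-dosed animals 2, 3, 4, 5, 6, 8, 10 and 11. All high-dosed animals lay above all controls, animal 8 by a hair over control 1 and animal 6 well above the rest. The estimate was 0.24 ± 0.076 (95% interval 0.079 to 0.41, adjusted p = 0.0591), and its other probe set differed by 0.16. Without animal 6 it was 0.21, with an adjusted p just under the threshold, and with animal numbers 8 and above as a block it passed at 0.24 (adjusted p = 0.0494). Bdh1 passed in no other setting. Leaving out 1 array gave 0.18 to 0.32 (limma adjusted p up to 0.236). Without control 2 and high-dosed animal 11 the estimate was 0.18 (adjusted p = 0.283). Acat1, the mitochondrial acetoacetyl-CoA thiolase, ran from 4355 to 4957 and from 4385 to 5105 (0.059 ± 0.055, adjusted p = 0.554).

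Of 6 genes of uptake, activation and storage, 1 was called, Acsl5 (16.7%, beside 10.6% of all genes tested), and 1 estimate lay above 0 (16.7%, beside 53.9%). Acsl5, a long-chain acyl-CoA synthetase, was at 12436, 12125 and 12257 in controls and ran from 10311 to 11734 in high-dosed animals with a median of 11273. The groups did not overlap, and the fall was small (-0.13 ± 0.038, limma adjusted p = 0.0478). Its other, dimmer probe set differed by 0.16 in the opposite direction, the mean over both was 0.015, and the call was lost without any 1 of the 3 controls (adjusted p up to 0.2), without control 2 and high-dosed animal 11 (-0.14, adjusted p = 0.133) and in most other settings. Acsl1, the main long-chain synthetase of liver, was at -0.052 ± 0.033 (adjusted p = 0.361).

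Cd36, a fatty acid translocase that endothelial cells and macrophages also make, was at 5853, 6044 and 4242 in controls 1, 2 and 9 and at 2868, 3124, 4476, 3343, 3992, 4090, 4826 and 3776 in high-dosed animals 2, 3, 4, 5, 6, 8, 10 and 11. All 8 high-dosed animals lay below the control mean, but animals 4 and 10 lay above control 9. Its estimate of -0.49 ± 0.15 fell short of the threshold (adjusted p = 0.055). It passed after quantile normalization and after median centring (-0.51 in both, adjusted p = 0.0479 and 0.049) and without control 9 (-0.65, adjusted p = 0.0318), and was -0.40 (adjusted p = 0.238) without control 2 and high-dosed animal 11. Plin2, a coat protein of lipid droplets, was at 7467, 8125 and 7244 in controls 1, 2 and 9. High-dosed animals 2, 3, 4, 5, 6, 8, 10 and 11 were at 4350, 4979, 5120, 3724, 8041, 6774, 7840 and 6445, so that 6 of the 8 lay under all controls and animals 6 and 10 did not. The group estimate was -0.41 ± 0.20 (adjusted p = 0.23). Fabp1, the liver fatty acid binding protein, and Slc27a2, encoding the transporter and very long chain synthetase FATP2, were at -0.054 ± 0.032 and 0.093 ± 0.049 (adjusted p = 0.325 and 0.261).

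Of the markers of other liver cells, 3 endothelial genes and 1 bile duct gene were higher in high-dosed animals by the test. These are 50% of those tested in each list, beside 7.91% of all genes tested. The summed intensity of 6 endothelial markers was 9840 to 10958 in controls and 11206 to 12341 in high-dosed animals, and the higher genes were Emcn, Pecam1 and Stab2. Lyve1 of that list went the other way without passing, at 2625 to 2754 and 2133 to 2696. The summed intensity of 7 macrophage markers was 15314 to 21473 and 19850 to 27552, with 0 called. Of these 7, 6 estimates lay above 0 and 1, that of Cd163, below. Of 5 bile duct markers with a probe set 2 passed the filter and 1, Epcam, was higher; Krt19, Krt7 and Cftr lay under it, and the sum was 717 to 871 and 1064 to 1746. That of 7 stellate cell markers was 9776 to 10378 and 9590 to 11850, and that of 4 lymphocyte markers 590 to 733 and 548 to 986, with Cd3e and Cd79b under the filter and 0 called in either list. The adipose list ranged from 2003 to 5185 in controls and from 2031 to 2764 in high-dosed animals, and the muscle list from 371 to 431 and from 290 to 6312; in both, 0 were called, and Plin1, Lep and Adipoq, and Tnnt3, Acta1, Myl1 and Mb, lay under the filter. The part of these markers in the results was not tested, and in whole tissue a change in the number of cells of a type cannot be told apart from a change in RNA per cell.

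**Figure D3:**
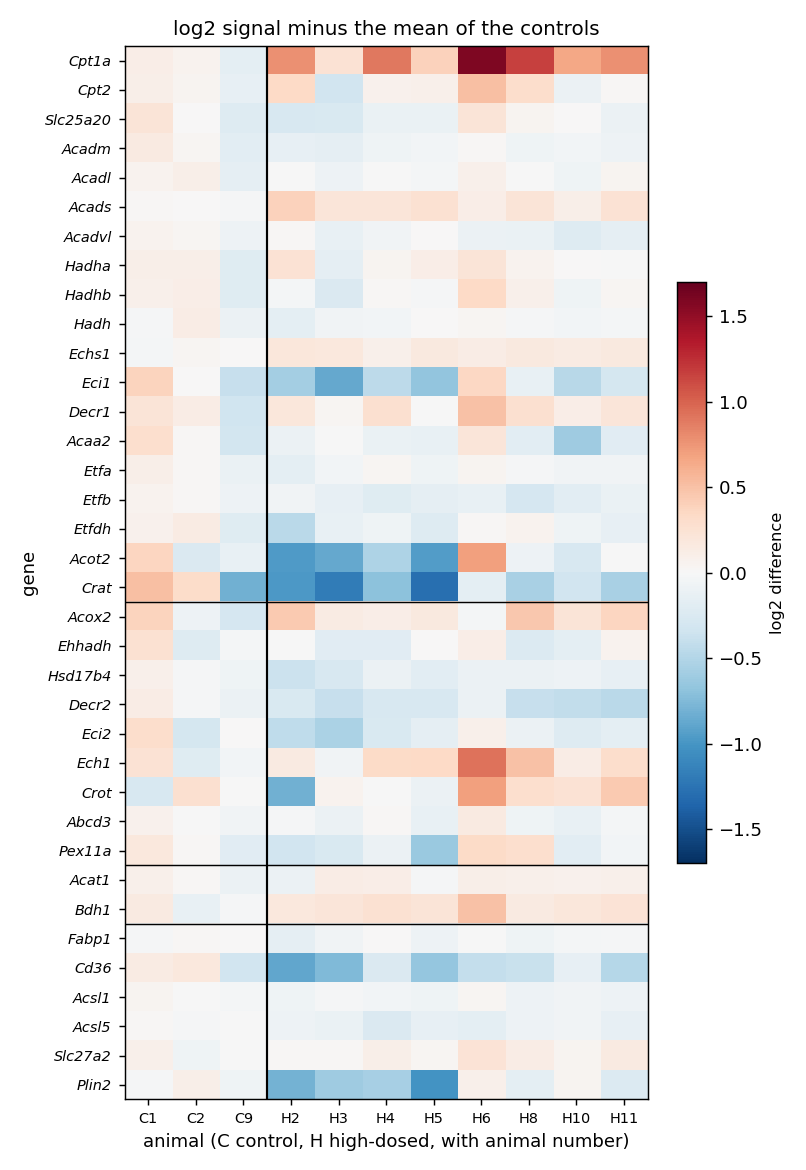
Log2 signal of the 36 members (rows, by place of action) in each of 3 control (C) and 8 high-dosed (H) animals (columns, with animal numbers), shown as the difference from the mean of the controls (colour scale, log2). The row of Cpt1a is red in all high-dosed animals. Among high-dosed animals, Crat, Acot2 and Plin2 are bluest in animals 2 to 5. Crat is bluer in control 9 (-0.82) than in high-dosed animal 4 (-0.69). Eci1 and Cd36 are bluest in animals 2, 3 and 5.

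Certain animals stood at the end of their group in many members. High-dosed animal 6 was the highest of the 8 high-dosed animals in 24 of 36 members (66.7%), beside 31.5% of all genes tested; its array also had the highest median intensity, 186.6. After quantile normalization it was highest in 23 members (63.9%), beside 16% of all genes, and after median centring in 12 (33.3%), beside 11.6%. Animals 2 and 3 were the lowest in 11 and 9 members, beside 24.3% and 5.8% of all genes, which is 30.6% and 25% of the members. After median centring animal 2 was lowest in 6 (16.7%, beside 13.7%) and highest in 10 (27.8%, beside 24.1%), and animal 3 lowest in 13 (36.1%, beside 7.13%). Among controls, number 1 was the highest in 26 members (72.2%, beside 27.7% of all genes) and number 9 the lowest in 26 (72.2%, beside 44.3%). The part of overall array brightness in this order was not tested. In all, the groups did not overlap in 7 of 36 members (19.4%), beside 12.1% of all genes tested: Cpt1a, Echs1, Acads and Bdh1, where high-dosed animals were higher, and Decr2, Hsd17b4 and Acsl5, where they were lower.

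The rest of the pathway was read from lists of other genes of fatty acid use, of which 102 were tested. Of these, 7 rose (6.86%, beside 7.91% of all genes tested), 7 fell (6.86%, beside 2.74%) and 88 did not pass. For both directions together the share was 13.7%, beside 10.6% of all genes. Of 20 other mitochondrial genes 0 rose and 1 fell (5%, beside 2.74% of all genes tested), the medium-chain acyl-CoA synthetase Acsm3 (-0.57 ± 0.15, limma adjusted p = 0.0281). Of 24 other peroxisomal genes 2 rose (8.33%, beside 7.91% of all genes tested) and 1 fell (4.17%, beside 2.74%). Those that rose were the racemase of branched chains Amacr (0.32 ± 0.082, adjusted p = 0.0301) and the transporter Abcd4 (0.25 ± 0.075, adjusted p = 0.0487). The gene that fell was Pex19, a chaperone of peroxisomal membrane proteins (-0.38 ± 0.085, adjusted p = 0.0172). Of 4 carnitine synthesis genes 0 were called (2 at an unadjusted limma p below 0.05). Of 4 other ketone body genes 1 rose (25%, beside 7.91% of all genes tested). It was the cytosolic dehydrogenase Bdh2 (0.52 ± 0.13, adjusted p = 0.0254), at 792, 777 and 765 in controls and 861 to 1530 in high-dosed animals. The calls of Acsm3 (adjusted p = 0.174 and 0.0813), Amacr (0.16 and 0.0865) and Pex19 (0.0669 and 0.0733) were lost without control 1 or 2, and those of Bdh2 and Abcd4 without any 1 control (adjusted p up to 0.098 and 0.176). Without high-dosed animal 5, Amacr had an adjusted p of 0.051. Abcd4 lost its call in 17 of 24 settings, among them quantile normalization (adjusted p = 0.0765), median centring (0.124), no filter (0.0694) and the loss of any 1 of 6 high-dosed animals. Without control 2 and high-dosed animal 11, Acsm3 (adjusted p = 0.0742), Pex19 (0.0766), Bdh2 (0.101) and Abcd4 (0.138) were not called.

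Of 25 other genes of uptake, activation and storage, 1 rose (4%, beside 7.91% of all genes tested) and 2 fell (8%, beside 2.74%). Plin3, a droplet coat protein of the same family as Plin2, rose (0.65 ± 0.067, limma adjusted p = 0.000313), with 2789, 2578 and 2345 in controls and 3614 to 4546 in high-dosed animals, and kept its call without any 1 array. Mgll, monoacylglycerol lipase, fell (-0.60 ± 0.13, adjusted p = 0.0134; -0.53 and adjusted p = 0.0891 without control 1), and Acsl3, a synthetase of the droplet surface, fell (-0.35 ± 0.10, adjusted p = 0.0478; adjusted p = 0.189 without control 1). The call of Acsl3 was lost without any 1 control and without 6 of the high-dosed animals, 1 at a time, and without control 2 and high-dosed animal 11 (-0.36, adjusted p = 0.133). The other 22 did not pass.

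Among 25 regulators and targets of PPAR alpha 3 rose (12%, beside 7.91% of all genes tested), 3 fell (12%, beside 2.74%) and 19 did not pass. Ppargc1a, the coactivator PGC-1 alpha, was at 112, 128 and 182 in controls and at 265, 295, 489, 344, 315, 336, 298 and 321 in high-dosed animals 2, 3, 4, 5, 6, 8, 10 and 11 (0.99 ± 0.14, limma adjusted p = 0.00182). Pdk4, the kinase that shuts off pyruvate dehydrogenase when fat is burned, was at 6214, 5869 and 6470 in controls and at 3034, 4083, 3742, 3099, 4387, 3566, 4881 and 4170 in high-dosed animals in the same order (-0.68 ± 0.12, adjusted p = 0.00544). Neither gene overlapped between the groups, and both kept their calls without any 1 array and without control 2 and high-dosed animal 11 (adjusted p = 0.0193 and 0.0255). Pdk4 is a PPAR alpha target like Cpt1a, and the pair went in opposite directions in these animals. The part of PPAR alpha in either difference was not tested.

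Cyp8b1, the bile acid hydroxylase on that list, rose (1.10 ± 0.13, adjusted p = 0.000727), and so did Vnn1, the pantetheinase (1.42 ± 0.30, adjusted p = 0.0123; 1.11 and adjusted p = 0.0601 without control 9). Gpd1, cytosolic glycerol phosphate dehydrogenase (-0.30 ± 0.061, adjusted p = 0.00892), and Ppard, PPAR delta (-0.41 ± 0.11, adjusted p = 0.037), fell, and Ppard lost its call without any 1 control and without control 2 and high-dosed animal 11 (-0.35, adjusted p = 0.128). The calls of Gpd1 and Vnn1 were also lost without control 2 and high-dosed animal 11 (-0.30 with an adjusted p just over the threshold, and 1.38 with an adjusted p of 0.0613). Other defining targets did not pass. Angptl4, an inhibitor of lipoprotein lipase, was at -0.44 ± 0.18 (adjusted p = 0.135), with animals 6 and 11 at 5260 and 5834 beside controls of 5074 to 5344 and the others between 2945 and 3683. Without animal 11, the array with muscle signal, it passed (-0.52, adjusted p = 0.0366), but in no other setting. Without both control 2 and high-dosed animal 11, Angptl4 was at -0.51 and did not pass (limma adjusted p = 0.101). Leaving out 1 array gave -0.52 to -0.38 (adjusted p up to 0.292). Fgf21, a fasting hormone, was at 0.23 ± 0.34 (adjusted p = 0.709), from 171 in animal 5 to 892 in animal 6, and Cyp4a1, a fatty acid omega-hydroxylase, at -0.016 ± 0.11 (adjusted p = 0.941). Ppara itself lay under the signal filter, at 95.7 to 105 in controls and 72.2 to 113 in high-dosed animals.

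**Figure D4:**
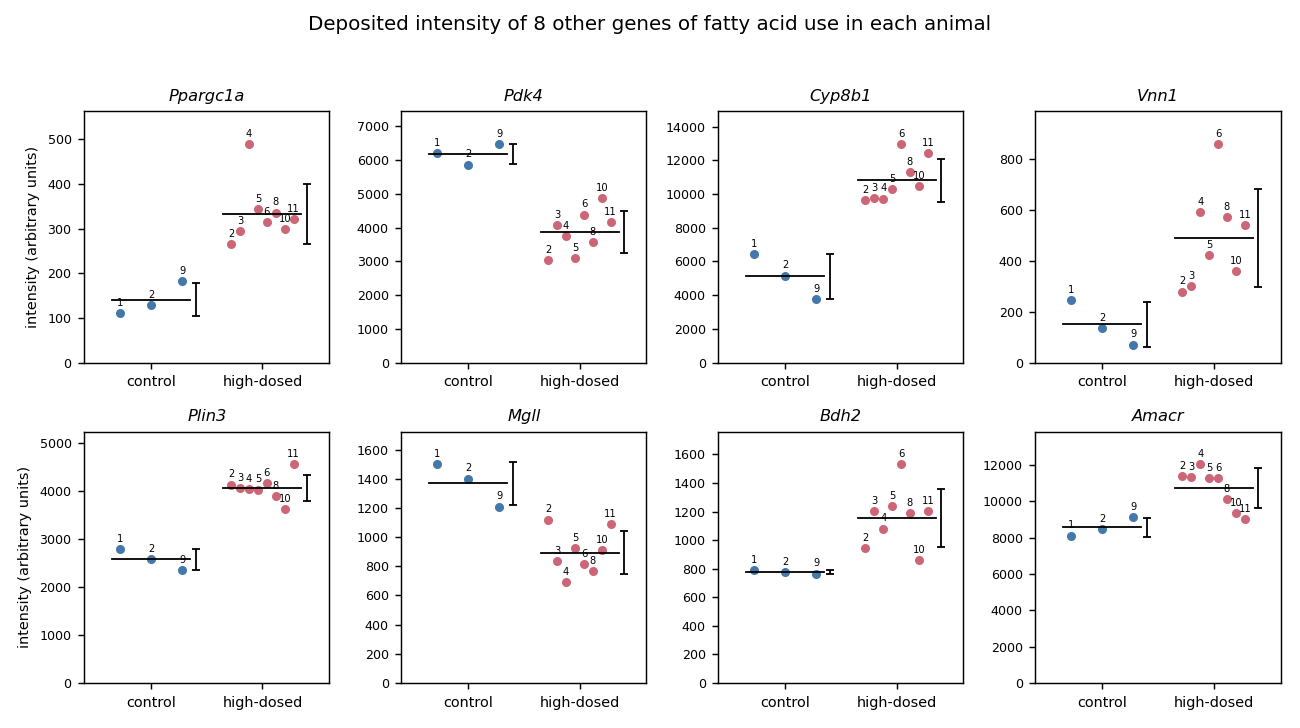
Deposited intensity (arbitrary units, axis from 0) of 8 other genes of fatty acid use in each animal, with animal numbers, the group mean as a bar and the SD as an error bar (3 controls, blue; 8 high-dosed animals, red). Pdk4 and Mgll are lower in every high-dosed animal than in any control, and Ppargc1a, Cyp8b1, Vnn1, Plin3 and Bdh2 are higher; in Amacr high-dosed animal 11 lies below control 9.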

How the data were processed

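Liver RNA of 11 rats was hybridised to 1 Affymetrix array per animal. The deposited intensity of each probe set was used on its linear scale as given by the authors; the submitters' processing notes name MAS5 without a version, role or scaling target, and detection calls were not used here. The extraction used Trizol and the labelled cRNA carried biotin, per the labels' protocols.

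Of 31099 probe sets, 20832 had 1 gene symbol, 436 several and 9831 none listed. Values were taken as log2(intensity + 55.26), the pseudocount being the 20th percentile, which understates changes of dim genes. After removal of 57 control probe sets and of all with a mean log2 value below the 40th percentile (7.40), 18625 remained. The brightest probe set of 1 symbol stood for each of 10714 genes. The platform annotation gives no coordinates here.

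The contrast of high-dosed minus control was fitted with limma 3.58.1 (R 4.3.3), with moderated variances, an intensity trend, two-sided tests and Benjamini-Hochberg adjustment over all genes tested; all adjusted p are from it, ± beside a log2 fold change is its SE, and genes under 0.05 count as called. The fit was checked on simulated data. Alternatives covered the pseudocount, filter, scaling, variance model, choice of probe set, adjustment, an animal number block and single arrays left out. The genes named were all members, called genes of the other lists and fixed defining genes. The members and lists were chosen with earlier results of these data known.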

Additional observations from a re-analysis of the deposited data

Results flagged for a closer look

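For 53 genes named in the text, the highest and the lowest of the 8 high-dosed animals were compared with their neighbours by Dixon's criterion on the log2 scale, and 3 had an animal far from the others; by chance about 1 group in 20 does. For Hadh, high-dosed animal 2 was lowest at 7434, beside a next value of 7995 (ratio of gap to range 0.52604); this lies only just past the critical value, and on the raw intensity scale the ratio was 0.509, short of it. For Bdh1, high-dosed animal 6 was highest at 3689, beside 3123 (ratio 0.70039). For Ppargc1a, high-dosed animal 4 was highest at 489, beside 344 (ratio 0.58209). The 3 controls are too few for this check.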

How the results depend on the processing

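Of 36 members, 19 kept the sign of their difference in all 25 settings and 17 turned in at least 1; none of the 5 called members was called in all of them. Members called higher numbered 3, and 1 after median centring or without an intensity trend; leaving out 1 array gave 0 to 4. Members called lower numbered 2, and 1 without a filter, without an intensity trend, with the mean of all probe sets, adjusted over all probe sets or fitted on all probe sets; leaving out 1 array gave 0 to 4. With animal numbers 8 and above as a block, 4 members were higher and 3 lower, and 1082 genes higher and 438 lower. Over all genes, 847 were higher and 294 lower, and leaving out 1 array gave 244 (control 1) to 1085 and 79 (control 1) to 325; median centring gave 473 and 258 and quantile normalization 589 and 333. The median of all genes was 0.017, 0.0043 with quantile normalization and -0.0040 with median centring.

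The fit on all probe sets and the next 3 subsets were chosen after seeing the data; animal number is not a labelled batch. Animal numbers 1 to 6 gave 0 members higher and 2 lower, Cd36 and Crat, and 403 genes higher and 204 lower. Numbers 8 and above, whose lone control is assumed to vary like the high-dosed animals, gave 0 members higher and 0 lower, 1 gene higher and 0 lower, and a member median of 0.12. Without control 2 and high-dosed animal 11, 1 member was higher and 0 lower, and 428 genes were higher and 112 lower. No paired analysis was possible because the groups share only animal number 2.

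Signs turned as follows, and the cause was not tested. With numbers 8 and above the differences were 0.20 for Slc25a20, 0.12 for Acadm, 0.14 for Acadl, 0.067 for Hadh, 0.089 for Eci1, 0.065 for Etfa, 0.15 for Etfdh, 0.0042 for Acot2, 0.35 for Crat, 0.22 for Pex11a and 0.14 for Cyp4a1. With numbers 1 to 6 they were -0.011 for Hadha, -0.094 for Hadhb, -0.037 for Crot and -0.0067 for Acat1. With the mean of all probe sets Hadha was at -0.034 and Acsl5 at 0.015, with median centring Hadhb was at -0.012, and without control 2 and high-dosed animal 11 Acadl was at 0.030 and Hadh at 0.019. Leaving out 1 array gave -0.18 to 0.035 for Slc25a20, -0.17 to 0.0020 for Acadm, -0.088 to 0.039 for Acadl, -0.039 to 0.12 for Hadha, -0.091 to 0.067 for Hadhb, -0.088 to 0.021 for Hadh, -0.29 to 0.0049 for Acaa2, -0.099 to 0.0056 for Etfa, -0.19 to 0.051 for Ehhadh, -0.030 to 0.24 for Crot and -0.083 to 0.11 for Cyp4a1.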
